A study of Mus musculus with 20 samples.

Results

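The comparison described here is the loss of Bcor in LSK cells that were also labelled Dnmt3a-/-. LSK cells (lineage-negative, Sca-1-positive, Kit-positive) are the sorted bone marrow fraction that holds the hematopoietic stem cells and the earliest progenitors. Of the 20 libraries of the series 10 are LSK, and the 5 compared are the 2 labelled Bcor-/-Dnmt3a-/- (called double knockout below) and the 3 labelled Dnmt3a-/-. Each of the 5 carries the name of its own C57BL/6 mouse, so replicates are mice. Values are FPKM, read fragments scaled to transcript length and to the mapped fragments of the library. Both groups share the deletion of Dnmt3a by Mx1-Cre, a recombinase switched on by interferon and here induced with pIpC, and the promoter is not limited to a single blood cell type. The double-knockout mice had in addition a Bcor gene from which the same recombinase removes internal exons, with a frameshift and an early stop. In the study's text the Dnmt3a deletion was partial in Dnmt3a-/- mice and complete in leukemic double mutants. The labels give neither age nor disease stage, but the study describes the double-knockout cells as coming from leukemic mice. Loss of Bcor, a fuller loss of Dnmt3a and the presence of acute erythroid leukemia therefore cannot be told apart in this comparison. Where Dnmt3a is called lost or null below, the label is meant. The groups set beside it are 2 Bcor-/- LSK libraries, 1 of which is labelled with a pair of mice, 3 wild type (WT) LSK libraries, and the megakaryocyte-erythroid progenitor (MEP) libraries of the same mice.

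BCOR is a corepressor that binds the transcription factor BCL6 and is a subunit of the Polycomb complex PRC1.1, which places ubiquitin on histone H2A at CpG-rich promoters. DNMT3A is one of the enzymes that put new methyl groups on DNA, and its loss is known to expand hematopoietic stem cells at the expense of their differentiation. During normal differentiation to the red cell lineage the stem cell factor GATA2 gives way to GATA1, which with KLF1 switches on heme synthesis, the globins and the red cell membrane proteins.

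Neither of the deleted genes was called. Bcor RNA was 35.8, 30.1 and 32.0 FPKM in Dnmt3a-/- and 24.0 and 37.4 in double-knockout LSK (log2 fold change -0.11 ± 0.22, SE here and below, limma, adjusted p = 0.75). Dnmt3a RNA was 16.9, 14.0 and 11.3 FPKM in Dnmt3a-/- and 10.4 and 10.9 in double-knockout LSK, and 19.8, 16.1 and 17.2 in WT (adjusted p = 0.28). The groups overlapped at Bcor, while both double-knockout libraries lay below all Dnmt3a-/- libraries at Dnmt3a. In Bcor-/- LSK Bcor RNA was 22.4 and 23.2 FPKM against 32.4, 31.1 and 29.5 in WT, lower by 0.43 ± 0.09 (adjusted p = 0.022) but by less than 1.5-fold. The study's text describes the deleted Bcor transcript as unstable. By reverse transcription and PCR it detected no Bcor mRNA in Bcor-/- LSK, and western blots of lineage-negative marrow cells showed loss of the protein. It also reports the Bcor deletion in leukemic double-knockout mice. Over the whole gene no loss of Bcor RNA was called here in the libraries labelled Bcor-/-Dnmt3a-/-. FPKM over a whole gene also count transcripts that lack only some exons, so the deletions are taken from the labels and were not checked by these levels. The Y-linked Ddx3y was present in all 5 libraries, at 25.0, 25.1 and 22.7 and 19.2 and 26.9 FPKM.

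The LSK label was checked against the genes that define the sort. Kit, the receptor for stem cell factor that gives LSK its K, was 184, 171 and 155 FPKM in Dnmt3a-/- and 47.7 and 19.4 in double-knockout LSK, and thus fell by 2.44 ± 0.37 on the log2 scale (adjusted p = 0.013). Ly6a, which encodes Sca-1, was 62.6, 57.4 and 52.7 FPKM against 63.5 and 220.2, high in double-knockout replicate 2 alone, and was not called. Genes of lineages that the sort should remove rose, as described below, and the pan-leukocyte gene Ptprc (CD45), looked at after the values had been seen, was 81.2, 90.3 and 83.7 FPKM against 123 and 215. The double-knockout libraries are therefore called by their label, with the reservation that their RNA did not carry the full LSK profile.

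The double-knockout libraries also differed from each other far more than the Dnmt3a-/- libraries did. Over the 12085 genes that averaged 1 FPKM or more in the 5 libraries, the correlation of log2(FPKM + 1) was 0.843 between the 2 double-knockout libraries and 0.978 to 0.983 between Dnmt3a-/- libraries, and 0.800 to 0.815 between the groups. More than a 4-fold difference separated the 2 double-knockout libraries at 775 genes, 333 higher in replicate 1 and 442 in replicate 2, against 17 to 27 genes for pairs of Dnmt3a-/- libraries. Results that rest on 1 of these libraries are given with its name.

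Loss of Bcor with Dnmt3a already lost was accompanied by higher RNA of red cell, lymphocyte and late neutrophil genes and lower RNA of stem cell genes, as described below by group. The call follows the study's limits, a change of more than 1.5-fold and an unadjusted p of less than 0.05, and 3211 of 12085 genes (26.6%) met both. Of these, 1754 (14.5% of the tested genes) were higher and 1457 (12.1%) lower in double-knockout LSK, and 1970 (16.3%) also had a Benjamini-Hochberg adjusted p under 0.05, 1095 higher and 875 lower. These adjusted calls numbered 319 to 325 with any 1 Dnmt3a-/- library left out, and 4712 and 3739 without double-knockout replicate 1 or 2. The median standard deviation of a gene on the log2 scale was 0.302 in double-knockout and 0.139 in Dnmt3a-/- LSK. With 1 variance per genotype in limma the adjusted calls numbered 1016. Of the 1754 higher genes 355 reached the mean of 1 FPKM only through the double-knockout libraries. Of the 1457 lower genes 293 did so only through the Dnmt3a-/- libraries, so that a difference at these 2 sets follows in part from the filter. They are said below to be tested through 1 group alone, and their levels are a description. The shares of 14.5% higher and 12.1% lower are the background to each list count that follows. All 3211 called genes had no overlap between the groups, as had 6211 of all tested genes (51.4%), and a further 2042 had the double-knockout libraries on opposite sides of all Dnmt3a-/- libraries. With 2 libraries against 3 an exact permutation test has 10 assignments and cannot give a two-sided p below 0.1. The share of higher genes among the calls was 54.6%, and it was 44.9% (1491 of 3320) after quantile normalization and 45.9% (1502 of 3274) after centring each library on its median, which move the median of all genes from 0.03 to -0.09 and -0.07. Without double-knockout replicate 1 the count was 4948, and without replicate 2 it was 4113, with the single remaining mouse assumed to vary like the others. All fold changes are on the log2(FPKM + 1) scale, which understates the change of genes at low levels.

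The genes that rose most were those of the maturing red cell. Of 12 genes at the top, 6 belong to hemoglobin production and the red cell (Hbb-b1, Hba-a1, Hbb-b2, Alas2, Slc4a1 and Trim10), and of these Trim10 was tested through the double knockout alone. The adult beta-globin Hbb-b1 was 45.2, 20.1 and 26.3 FPKM in Dnmt3a-/- and 2825 and 12338 in double-knockout LSK, a log2 fold change of 7.63 ± 0.67 (adjusted p = 0.0034). The alpha-globin Hba-a1 was 32.7, 13.3 and 12.4 FPKM in Dnmt3a-/- and 1810.0 and 6837 in double-knockout LSK, 222-fold higher in the mean FPKM (7.56 ± 0.67, adjusted p = 0.0034). Both groups were far apart, and within the double knockout replicate 2 was the higher library. Hbb-b2 moved alike, with 22.5, 17.3 and 14.8 against 969.5 and 3371 FPKM. The globin genes are near copies of each other and the counting may have shared their reads, so the sum over the list is given too: 50.8 to 100.4 FPKM in Dnmt3a-/-, and 5605 and 22650 in double-knockout LSK. Of 10 listed globin genes 4 were tested and 3 rose. The exception, Hbb-bs, was near 0 in 4 libraries and 103 FPKM in double-knockout replicate 2. The embryonic globins Hbb-y, Hbb-bh1 and Hba-x stayed under the filter.

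In the heme synthesis list 12 of 13 genes rose and none fell, with a median log2 fold change of 1.57, against 14.5% of all tested genes rising and a median of 0.03. Alas2, the erythroid enzyme that starts the pathway, was 2.45, 1.23 and 1.84 FPKM in Dnmt3a-/- and 120.4 and 469 in double-knockout LSK (6.42 ± 0.57, adjusted p = 0.0035). Fech, which inserts iron in the last step, was 17.2, 19.1 and 20.6 against 78.0 and 163 FPKM (2.51 ± 0.32). The groups were apart at both genes. Cpox, Urod, Uros, Alad and Ppox, further enzymes of the pathway, rose by 2.48, 1.57, 1.34, 1.22 and 1.04 on the log2 scale. The smallest of the called changes was that of the mitochondrial carrier Slc25a39, at 55.1, 43.3 and 55.2 against 62.9 and 101 FPKM (adjusted p = 0.13). Alas1, the form of the first enzyme that all tissues use, was 26.7, 39.8 and 34.9 FPKM against 27.2 and 41.1 and was not called. The list's median was alike in both double-knockout libraries, 1.52 in replicate 1 and 1.66 in replicate 2.

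Red cell membrane and surface genes rose in 20 of 24 cases, 18 of them with an adjusted p under 0.05, and none fell. Of these, 4 passed the filter through the double-knockout libraries alone, and of the 20 genes that reached the mean of 1 FPKM in Dnmt3a-/- LSK 16 rose. Slc4a1, the anion exchanger band 3, was 5.27, 3.13 and 2.81 FPKM in Dnmt3a-/- and 223 and 437 in double-knockout LSK (6.08 ± 0.36, adjusted p = 0.0019). The spectrin chain Sptb was 1.17, 0.887 and 1.03 FPKM against 32.6 and 40.8. In these genes the 2 double-knockout libraries lay on the same side, far above every Dnmt3a-/- library. Epb4.2, Dmtn and Tmod1, further proteins of the membrane skeleton, were tested through the double knockout alone, and Epb4.2 was 0.727, 0.729 and 0.958 against 22.0 and 44.4 FPKM and Dmtn 0.793, 0.494 and 0.332 against 18.5 and 25.9, and the mean of Tmod1 was 0.959 against 21.0 FPKM. Ank1, the ankyrin of the skeleton, rose by 3.85, and the blood group proteins Rhag, Rhd and Kel by 3.88, 3.82 and 3.43. Cd47, Gypc and Bsg, which many cell types use, and the glucose transporter Slc2a1 were not called. The summed level of the list was 448 to 472 FPKM in Dnmt3a-/- and 1508 and 2066 in double-knockout LSK.

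**Figure D1:**
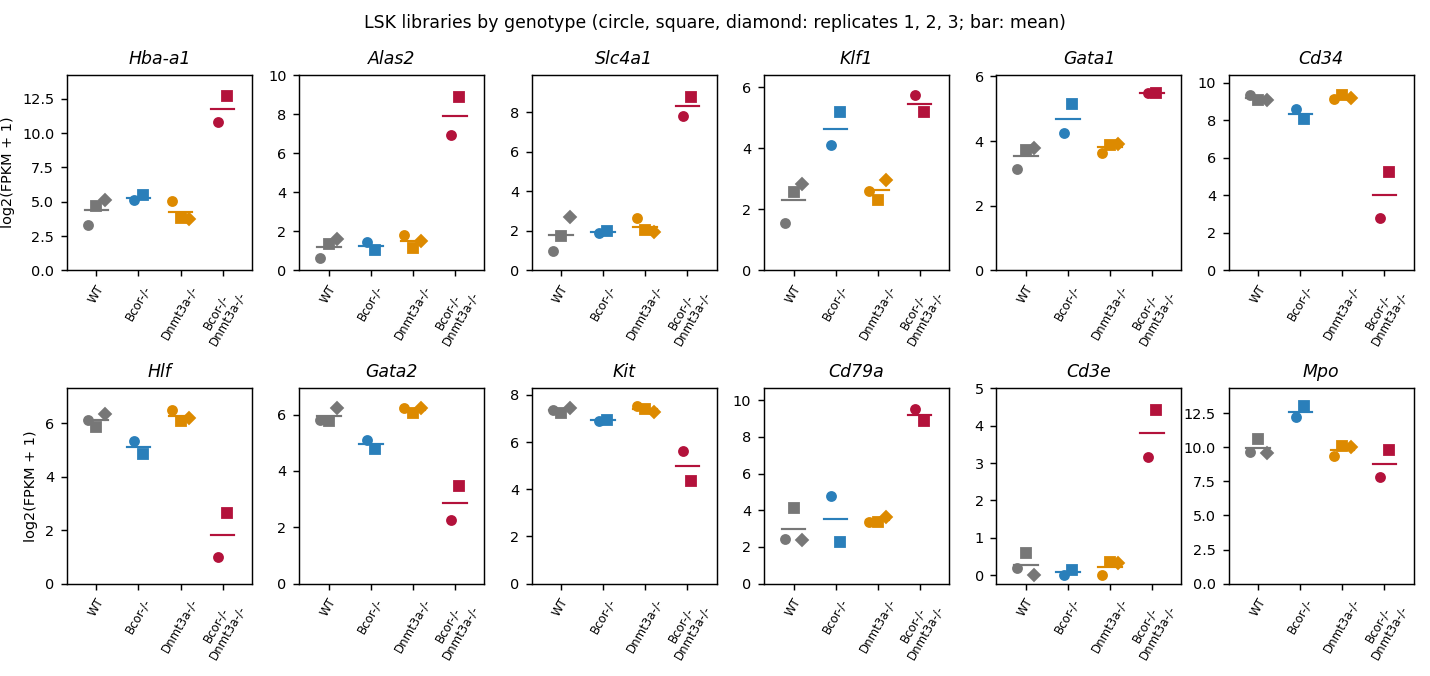
Level of 12 genes in each of the 10 LSK libraries, as log2(FPKM + 1), by genotype, with a bar at the group mean. The 2 double-knockout libraries stand above the rest for Hba-a1, Alas2, Slc4a1, Cd79a and Cd3e and below the rest for Cd34, Hlf, Gata2 and Kit, while Klf1 and Gata1 are higher in Bcor-/- than in WT LSK as well. Mpo is higher in Bcor-/- than in WT LSK and was not called in the double knockout.

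Of 15 genes of iron handling 5 rose and 1 fell, against 14.5% and 12.1% of all tested genes, and 4 of 14 rose apart from Fam132b, which was tested through the double knockout alone. Tfrc, the transferrin receptor, was 37.6, 44.0 and 47.2 FPKM in Dnmt3a-/- and 175 and 211 in double-knockout LSK (2.15 ± 0.16, adjusted p = 0.0025). Slc25a37, mitoferrin, was 38.2, 34.9 and 33.6 against 108 and 197 FPKM. Fam132b, the erythroid hormone erythroferrone, was 0.628, 0.28 and 0.755 against 12.9 and 9.57 FPKM. Tfr2, a sensor of iron-loaded transferrin that partners the erythropoietin receptor, went the other way, at 34.8, 31.0 and 35.7 FPKM against 10.4 and 8.59, and fell by 1.73 ± 0.15 (adjusted p = 0.0034). The iron exporter Slc40a1 and the heme oxygenase Hmox1 were high in double-knockout replicate 1 alone, as were most macrophage genes below.

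The transcription factors of the lineage moved in both directions. Klf1 was 5.01, 3.94 and 6.84 FPKM in Dnmt3a-/- and 52.0 and 35.3 in double-knockout LSK (2.84 ± 0.27, adjusted p = 0.0039). Gata1 was 11.4, 13.7 and 14.0 FPKM against 44.1 and 43.5, nearly equal in the 2 double-knockout mice (1.68 ± 0.15, adjusted p = 0.0034). E2f2, which is needed for the last divisions of erythroblasts, was 9.67, 8.16 and 8.73 FPKM against 60.4 and 90.1 (2.93 ± 0.21). Klf3, a target of KLF1, was 14.1, 12.4 and 11.4 FPKM against 40.9 and 41.1. Against these stood Lmo2, a partner of GATA1 and TAL1 that stem cells also express, at 564, 581 and 539 FPKM against 126 and 156, which fell by 1.99 ± 0.16 (adjusted p = 0.0028), and Nfe2, a factor of platelet formation and globin control, at 165, 153 and 150.3 against 49.0 and 76.1 FPKM. Tal1 was 43.6, 42.1 and 39.7 against 38.2 and 37.5 FPKM and Gfi1b 25.3, 17.5 and 20.7 against 37.7 and 23.8, and neither was called. Of the 20 listed factors 7 rose and 2 fell, against 14.5% and 12.1% of all tested genes.

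The receptor for erythropoietin and its downstream genes rose in part. Epor was 4.01, 2.79 and 4.11 FPKM in Dnmt3a-/- and 26.5 and 17.4 in double-knockout LSK (2.29 ± 0.26, adjusted p = 0.006). Socs2, a feedback inhibitor of cytokine receptors, was 2.95, 2.24 and 1.92 FPKM against 67.8 and 20.7, higher in replicate 1. Bcl2l1, the survival gene Bcl-xL that the receptor controls in erythroblasts, was 8.73, 9.77 and 11.5 FPKM against 35.1 and 39.7 (1.81 ± 0.17, adjusted p = 0.0037). Stat5a, which carries the signal, was 47.1, 37.6 and 42.4 FPKM against 26.8 and 24.6 and fell by 0.70 ± 0.15 (adjusted p = 0.033). Against 14.5% and 12.1% of all tested genes, 6 of these 13 genes rose and 1 fell, 11 were higher without double-knockout replicate 1, and 3 were lower without replicate 2. Of 16 genes of late erythroid autophagy and enucleation 7 rose and 1 fell (11 higher without replicate 1), and 5 of 14 rose apart from those tested through the double knockout alone, such as Trim10. Trim10, a RING finger gene of late erythroblasts, was 0.712, 0.625 and 0.401 FPKM against 38.6 and 89.7, and Ube2o, the ubiquitin enzyme that clears reticulocyte proteins, 8.46, 6.01 and 8.16 against 24.5 and 52.8. Gabarapl1, which coats autophagosomes, was 136, 143 and 134 against 40.2 and 39.6 FPKM and fell by 1.76 ± 0.12.

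**Figure D2:**
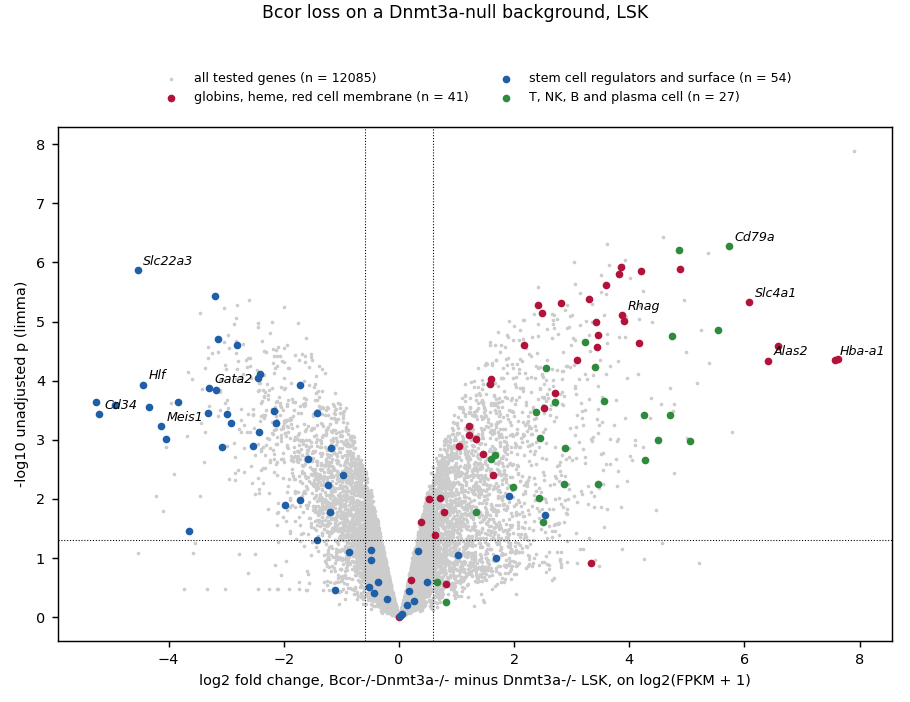
Log2 fold change of double-knockout over Dnmt3a-/- LSK (x axis) against the negative log10 of limma's unadjusted p (y axis) for the 12085 tested genes, with the erythroid, stem cell and lymphoid lists in color and dotted lines at the thresholds. Erythroid genes lie mostly on the right, with globins at the far end, and stem cell genes mostly on the left.

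Promoters of genes at both ends of the comparison are shown because the rule that chose the genes did not use sequence. Of the 12085 tested genes 9697 (80.2%) matched a promoter in the RefSeq table of GRCm38.p6, which gives 250 bases before and 50 after each start. The windows were searched on both strands for the GATA motif (GATAA or GATAG preceded by A or T) and the KLF box (CCNCNCCC), overlapping matches counted separately, and matches are in capitals. The windows are those of Alas2 (chrX:150547167-150547466, plus strand), Klf1 (chr8:84901732-84902031, plus strand), Hba-a1 (chr11:32283422-32283721, plus strand), Cd34 (chr1:194938571-194938870, plus strand) and Hlf (chr11:90390868-90391167, minus strand), each read 5′ to 3′. The build is that of the promoter table and not the mm9 of the expression values.
Alas2: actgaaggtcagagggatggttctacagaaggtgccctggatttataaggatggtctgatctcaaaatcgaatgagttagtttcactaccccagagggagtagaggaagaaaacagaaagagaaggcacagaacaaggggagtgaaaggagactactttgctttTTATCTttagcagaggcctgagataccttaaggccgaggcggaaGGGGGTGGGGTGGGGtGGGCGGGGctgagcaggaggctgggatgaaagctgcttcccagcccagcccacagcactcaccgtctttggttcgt
Klf1: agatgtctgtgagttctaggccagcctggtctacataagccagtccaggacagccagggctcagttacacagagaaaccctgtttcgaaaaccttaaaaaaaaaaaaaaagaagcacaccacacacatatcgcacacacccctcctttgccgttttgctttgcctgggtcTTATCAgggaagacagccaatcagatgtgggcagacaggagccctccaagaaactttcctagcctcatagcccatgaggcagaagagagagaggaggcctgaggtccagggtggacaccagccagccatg
Hba-a1: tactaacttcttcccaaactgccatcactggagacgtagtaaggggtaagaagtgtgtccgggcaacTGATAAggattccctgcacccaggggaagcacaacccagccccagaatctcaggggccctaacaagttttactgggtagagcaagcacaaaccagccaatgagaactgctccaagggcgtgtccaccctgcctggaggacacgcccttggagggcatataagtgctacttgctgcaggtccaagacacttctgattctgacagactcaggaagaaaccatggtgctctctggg
Cd34: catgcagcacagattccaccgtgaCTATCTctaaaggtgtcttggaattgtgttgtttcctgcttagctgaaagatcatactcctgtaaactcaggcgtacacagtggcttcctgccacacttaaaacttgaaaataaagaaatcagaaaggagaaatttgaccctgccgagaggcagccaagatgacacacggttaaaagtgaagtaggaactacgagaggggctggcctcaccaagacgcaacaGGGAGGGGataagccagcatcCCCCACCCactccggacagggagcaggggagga
Hlf: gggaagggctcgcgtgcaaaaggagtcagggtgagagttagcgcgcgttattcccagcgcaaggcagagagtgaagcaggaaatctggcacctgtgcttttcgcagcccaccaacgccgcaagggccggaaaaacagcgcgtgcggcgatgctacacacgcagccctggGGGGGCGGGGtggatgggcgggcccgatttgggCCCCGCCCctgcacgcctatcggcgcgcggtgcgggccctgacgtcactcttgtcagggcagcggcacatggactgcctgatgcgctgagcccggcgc

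The Alas2 window holds 1 GATA motif and 4 KLF boxes, and those of Klf1 and Hba-a1 hold 1 GATA motif and no KLF box. The Cd34 window, from a gene that fell, holds 1 GATA motif and 2 KLF boxes, and that of Hlf 3 KLF boxes and no GATA motif. The Hlf window has 30 CpG (observed over expected 0.893), against 3 to 7 in the other 4 windows (0.152 to 0.374) and a median of 21 (0.769) in the promoters of tested genes. A GATA motif was in 18.8% of the promoters of tested genes and in 30.2% of all 27025 in the table, and a KLF box in 67.9% and 49.1%. Called genes could not be compared with the rest, since fewer than 80% of the genes called higher (78.4%) or lower (79.7%) matched a window. A match is a run of letters, not a bound site.

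At the other end, genes of the hematopoietic stem cell fell. In bulk RNA fewer cells of a type and less RNA per cell cannot be told apart, here and for the lineage genes below. Of 25 stem cell regulators 16 fell and none rose, against 12.1% of all tested genes falling. Of the 20 that averaged 1 FPKM or more in the double knockout 12 fell, and the other 5 passed the filter only through the Dnmt3a-/- libraries. Hlf, a factor that marks stem cells, was 89.4, 66.8 and 72.0 FPKM in Dnmt3a-/- and 1.01 and 5.18 in double-knockout LSK (-4.44 ± 0.47, adjusted p = 0.0052). Meis1, the partner of HOXA9, was 72.8, 66.1 and 71.3 FPKM against 0.93 and 7.53 (-4.13 ± 0.60). Gata2, the factor that precedes GATA1, was 74.2, 65.1 and 73.7 FPKM against 3.74 and 10.1 (-3.31 ± 0.36, adjusted p = 0.0055). None of these overlapped between the groups, and replicate 1 was the lower double-knockout library in all 3. Mycn and Myct1 fell by 2.45 ± 0.25 and 4.33 ± 0.54, and Mecom (EVI1), tested through Dnmt3a-/- alone, was 14.2, 11.8 and 11.3 against 0.278 and 0.789 FPKM. In the HoxA cluster 5 of 7 tested genes fell, 3 with an adjusted p under 0.05, and 4 of 5 apart from those tested through Dnmt3a-/- alone. Hoxa9 was 38.1, 36.8 and 31.0 against 1.87 and 6.21 FPKM, and Hoxa10 8.07, 5.49 and 8.03 against 0.636 and 1.46. Hmga2, a chromatin protein of fetal stem cells, was 5.30, 7.86 and 3.58 FPKM against 0.127 and 0.503 and was tested through Dnmt3a-/- alone. Runx1 (28.2, 29.2 and 27.2 against 26.6 and 14.6 FPKM) and Gfi1 (19.6, 24.5 and 20.2 against 26.7 and 27.5) were not called. Erg, a factor of stem cells and megakaryocytes, was 97.3, 91.6 and 84.8 FPKM against 169 and 9.56, on both sides of Dnmt3a-/- (without replicate 2 the difference is 0.89, without replicate 1 -3.12).

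Surface and niche genes of stem cells fell in 19 of 29 cases, 17 with an adjusted p under 0.05, and rose in 2, with 3 of the falls at genes that passed the filter only through the Dnmt3a-/- libraries. Cd34, the sialomucin that marks progenitors in the LSK gate, was 573, 650.1 and 581 FPKM in Dnmt3a-/- and 5.87 and 37.3 in double-knockout LSK, 27.9-fold lower in the mean (-5.21 ± 0.69, adjusted p = 0.0089). Adgrl4, an adhesion receptor of endothelium and stem cells, had the largest fall of the named genes, from 258, 249 and 263 FPKM to 2.02 and 13.8 (-5.27 ± 0.64). Angpt1, the ligand of TIE2, was 150.4, 153 and 161 FPKM against 1.39 and 9.89 (-4.94 ± 0.61). At all 3 genes replicate 2 kept several times more RNA than replicate 1. Slc22a3, an organic cation transporter, was 59.7, 55.3 and 60.1 FPKM against 1.07 and 2.15 (-4.54 ± 0.21, adjusted p = 0.0012). Procr (EPCR) was 30.9, 24.4 and 25.5 against 0.762 and 5.21 FPKM, Tie1 34.6, 23.5 and 29.6 against 0.228 and 2.54, and Flt3, the receptor of multipotent progenitors, 248, 223 and 196 against 58.4 and 76.2. Slamf1 (CD150) was 1.69, 3.46 and 3.24 against 3.69 and 2.14 FPKM and was not called. The 2 that rose, Cxcr4, the chemokine receptor that retains cells in the marrow (48.0, 48.4 and 51.5 against 103 and 345 FPKM), and Thy1 (8.14, 6.86 and 6.81 against 17.1 and 126), are also genes of lymphocytes and had an adjusted p of 0.052 and 0.083 (4 rose without double-knockout replicate 1, and 1 with any Dnmt3a-/- library left out). Also among the 12 largest falls were Gcnt2, which branches cell surface sugars (-4.04 ± 0.69), the protease inhibitor Ctla2a (-3.91 ± 0.83) and 9030619P08Rik (-3.96 ± 0.48).

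Genes of mature lineages, which the lineage-negative gate should exclude, rose beside the erythroid genes. Of 18 tested T and NK cell genes 6 averaged 1 FPKM or more in Dnmt3a-/- LSK, and all 6 rose. The other 12 passed the filter only through the double-knockout libraries and so had to be higher there, among them Cd3e, Cd3g, Cd8b1 and Gzma, whose levels are given as a description. Cd3e, a chain of the T cell receptor complex, was 0, 0.293 and 0.263 FPKM in Dnmt3a-/- and 8.03 and 20.4 in double-knockout LSK. Cd3g was 0, 0.217 and 0 against 12.3 and 57.3 FPKM, Cd8b1 0, 0 and 0.134 against 6.53 and 52.5, and the granzyme Gzma 0.522, 0.523 and 0.47 against 10.8 and 20.6. Replicate 2 was the higher library in most of the list, whose sum was 39.0 to 41.0 FPKM in Dnmt3a-/- and 192.5 and 612.7 in double-knockout LSK. Of 9 mature B and plasma cell genes 6 averaged 1 FPKM or more in Dnmt3a-/- LSK, of which 4 rose, and 3 passed the filter only through the double-knockout libraries. The sums were 234.7 to 581.3 against 1886 and 4596 FPKM. They were 361.7 to 3188 in Bcor-/- and 127.8 to 860.0 in WT LSK, so that the higher Bcor-/- library lay above double-knockout replicate 1. Cd79a, a signalling chain of the B cell receptor, was 9.26, 9.44 and 11.4 FPKM against 736 and 466 (5.74 ± 0.23, adjusted p = 0.0012). Cd22 and Ms4a1 (CD20) were tested through the double knockout alone. Cd22 was 0.534, 0.341 and 0.307 against 41.0 and 37.9 FPKM and Ms4a1 0.294, 0.785 and 1.32 against 20.9 and 154. The plasma cell gene Jchain was 168, 506 and 477 against 133 and 2733 FPKM and was not called. The lymphocyte gene Gimap4 (5.37 ± 0.22), a GTPase, was among the 12 largest increases, as was Fcmr, the receptor for IgM, which was tested through the double knockout alone (0.28, 0.701 and 0.882 against 29.0 and 258 FPKM). The part of such cells in the other results was not tested.

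B cell development genes separated the 2 double-knockout mice. Pax5 and Ebf1, which commit cells to the B lineage, were 2.31, 1.25 and 1.60 against 102 and 48.4 and 1.86, 0.882 and 1.71 against 108 and 18.4 FPKM, and Il7r, the receptor for the growth factor of B cell precursors, 4.62, 5.05 and 2.74 against 194 and 32.7. These rose in both mice. The pre-B cell receptor genes Vpreb1 (9.57, 11.2 and 13.4 against 878 and 1.88 FPKM) and Igll1 (17.4, 17.5 and 16.9 against 996 and 1.60) and the recombinase Rag1 (2.05, 1.71 and 1.77 against 57.4 and 0) were high in replicate 1 and below all Dnmt3a-/- libraries in replicate 2. Without replicate 1 their differences are -2.09, -2.81 and -1.51, and without replicate 2 they are 6.16, 5.77 and 4.36. Dntt, the terminal transferase of early lymphoid progenitors, was 273, 305 and 266 FPKM against 2.58 and 75.5, lower in both mice (adjusted p = 0.077). Of 24 lymphoid priming genes 12 rose and 2 fell, and 5 fell without either of the double-knockout libraries.

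Myeloid genes split by stage. Of 14 late neutrophil genes 12 rose, all with an adjusted p under 0.05 (median 2.23, with 2.40 and 1.95 in the 2 double-knockout libraries). Camp, the cathelicidin of secondary granules, was 65.0, 52.7 and 48.5 FPKM in Dnmt3a-/- and 566 and 715 in double-knockout LSK (3.51 ± 0.19, adjusted p = 0.0017). S100a8 was 522, 814 and 665 FPKM against 3340.1 and 2493, S100a9 535, 652 and 527 against 2950.5 and 2153, Lcn2 45.7, 26.0 and 23.1 against 331 and 257 and Ltf (lactoferrin) 39.5, 24.0 and 17.8 against 189 and 98.3. The sum of this list was 1551 to 1897 FPKM in Dnmt3a-/- and 8610 and 7129 in double-knockout LSK, and it was 5561 to 5873 in Bcor-/- and 2052 to 10755 in WT LSK, so that the highest WT library lay above both double-knockout libraries. Primary granule genes of the promyelocyte did not follow. Mpo was 644, 1088 and 1019.8 FPKM against 221 and 891, Elane 222, 437 and 471 against 154 and 703, Prtn3 262, 375 and 484 against 138 and 477 and Ctsg 164, 376 and 290.1 against 56.1 and 258, and none was called. Of the 24 genes of this list 6 rose and 1 fell (median 0.02), 1 each with an adjusted p under 0.05, and the 7 called are near the share of all tested genes (26.6%). Without double-knockout replicate 2 it was 5 and 9, and without Dnmt3a-/- replicate 1 or 3 only 3 rose. The single fall was Csf3r, the receptor for G-CSF, at 77.4, 64.2 and 60.2 FPKM against 12.4 and 15.8 (-2.18 ± 0.18, adjusted p = 0.0029). The rises with an adjusted p over 0.05 included Irf8, a factor of monocytes and B cells, at 30.1, 33.6 and 30.6 against 50.8 and 380.4 FPKM. Itgam (CD11b), looked at after the values had been seen, was 14.6, 17.1 and 13.1 against 28.4 and 19.5 FPKM.

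Macrophage genes were far higher in 1 double-knockout mouse than in the other. C1qa, a subunit of complement C1q, was 3.85, 7.51 and 17.2 FPKM in Dnmt3a-/- and 360.3 and 7.38 in double-knockout LSK, and C1qb 4.14, 8.32 and 19.4 against 409.9 and 7.30. Replicate 1 was over 4-fold above replicate 2 at 16 of 19 macrophage genes, and the sums were 2369 and 169.5 FPKM, against 72.6 to 206.8 in Dnmt3a-/-, 410.6 to 474.1 in Bcor-/- and 104.6 to 581.9 in WT LSK. Of the 14 genes that averaged 1 FPKM or more in Dnmt3a-/- LSK 1 rose in the comparison of both mice, the lysosomal Cd68 (19.8, 21.2 and 27.5 against 83.1 and 64.1 FPKM). Of the 5 tested through the double knockout alone 2 were called, among them the scavenger receptor Marco (0.102, 0.102 and 0.0917 against 34.0 and 5.43 FPKM). Without replicate 2 all 19 were higher, and without replicate 1 it was 3 higher and 2 lower of the 16 then tested. Lyz2, lysozyme of macrophages and granulocytes, was 214, 247 and 233 against 365 and 539 FPKM and rose in both mice.

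Megakaryocyte and platelet genes fell in 11 of 25 cases and rose in 3, against 12.1% and 14.5% of all tested genes, with 19 lower without double-knockout replicate 2 and 5 higher without replicate 1. Apart from genes tested through 1 group alone 9 of 21 fell and 1 of 23 rose. Pf4, platelet factor 4, was 62.2, 64.7 and 68.0 FPKM in Dnmt3a-/- and 4.08 and 19.4 in double-knockout LSK (-2.70 ± 0.56, adjusted p = 0.03), and the integrin Itga2b (CD41) 51.2, 45.7 and 56.4 against 3.67 and 18.9. P2ry12, the ADP receptor of platelets, was 0.256, 0.256 and 0.307 against 9.44 and 4.24 FPKM and was tested through the double knockout alone. The sum was 707 to 762 FPKM in Dnmt3a-/-, and 324 and 506 in double-knockout LSK. Mast cell and basophil genes fell in 5 of 8 cases (4 of 7 apart from 1 tested through Dnmt3a-/- alone), such as the carboxypeptidase Cpa3 (34.8, 58.0 and 41.0 against 0.792 and 5.77 FPKM). Of 10 MHC class II genes 8 rose (median 2.18). Cd74, the invariant chain, was 149.9, 119 and 164 FPKM against 1054 and 2723 (3.56 ± 0.42, adjusted p = 0.0069), H2-Aa 96.7, 79.9 and 105 against 582 and 1029.7, and Ciita, the activator of these genes, 1.85, 1.15 and 1.81 against 6.48 and 14.4.

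**Figure D3:**
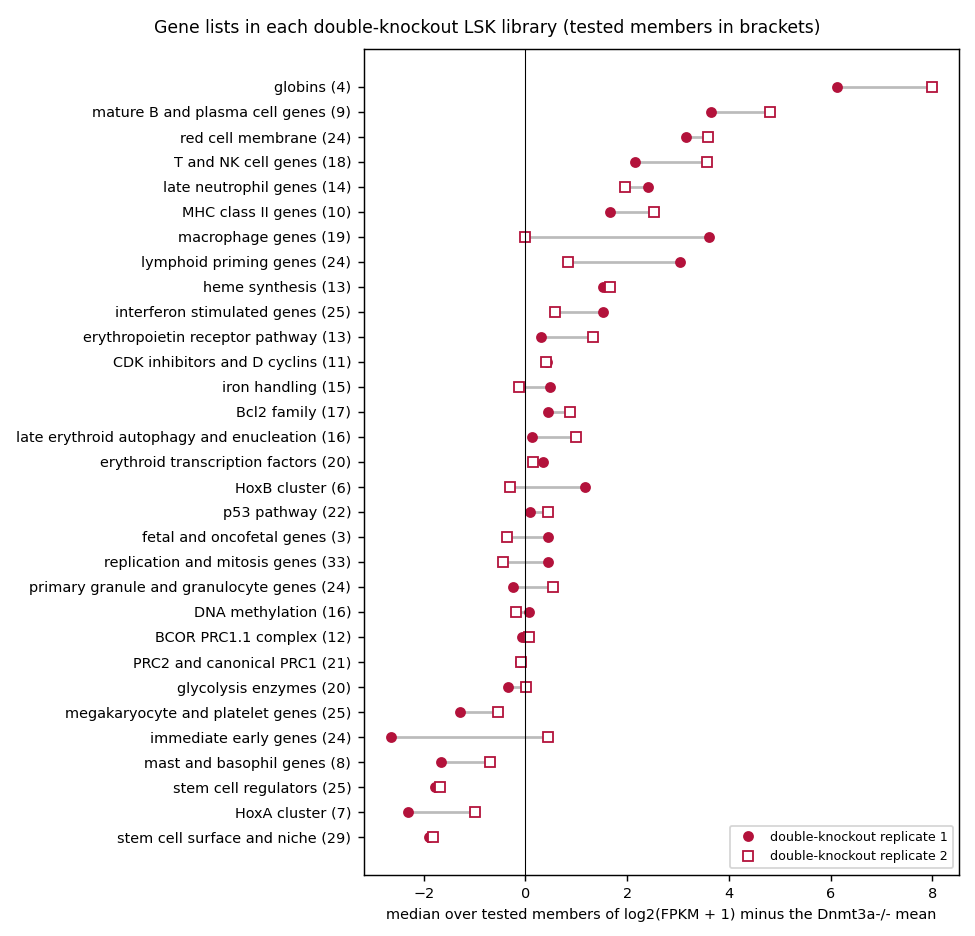
Median over the tested members of each gene list of log2(FPKM + 1) minus the Dnmt3a-/- mean, for double-knockout replicate 1 (filled circles) and replicate 2 (open squares), with members included that passed the filter only through the double-knockout libraries (12 of 18 T and NK cell genes). Heme synthesis (1.52 and 1.66) and the stem cell regulators (-1.78 and -1.68) coincide, whereas macrophage (3.60 and -0.02) and immediate early genes (-2.64 and 0.44) lie far apart.

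Immediate early genes, which cells switch on within minutes of stimulation or handling, were lowest in replicate 1. The sum of the list was 1116 and 8179 FPKM in double-knockout LSK and 9157 to 9899 in Dnmt3a-/- LSK. The Dnmt3a-/- libraries themselves lay above WT (4458 to 6270.3) and Bcor-/- LSK (4070.4 to 4306). By this sum replicate 2 was below Dnmt3a-/- and above every WT library. By the median over the genes of the list replicate 2 was above the Dnmt3a-/- mean (0.44 on the log2 scale) and replicate 1 below it (-2.64). Fos was 2747, 2589.9 and 2353 FPKM in Dnmt3a-/- and 239 and 1170.4 in double-knockout LSK, Jun 1045, 952 and 918 against 165 and 778, and Atf3 72.7, 72.2 and 77.5 against 2.25 and 405. At 22 of 24 genes replicate 2 was over 4-fold above replicate 1. The list had 5 genes lower and none higher in the comparison of both mice (0 with an adjusted p under 0.05 in limma), with 22 of 23 lower without replicate 2 and 11 higher and 5 lower without replicate 1. Without Dnmt3a-/- replicate 1, 2 or 3 it was 2, 2 and 3 lower. Egr1, an immediate early gene that also holds stem cells at rest, was 520.0, 599.7 and 605 against 7.63 and 242 FPKM (adjusted p = 0.12). A pair of HoxB genes was near 0 in all libraries but replicate 1. Hoxb7 was 0, 0.169 and 0 FPKM in Dnmt3a-/- and 28.4 and 0.408 in double-knockout LSK, and Hoxb8 0, 0 and 0.135 against 30.7 and 0. Both genes were tested through the double knockout alone, as were 3 of the 6 tested genes of this cluster in all, so their levels are a description. No gene of this cluster was called in the comparison of both mice.

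**Figure D4:**
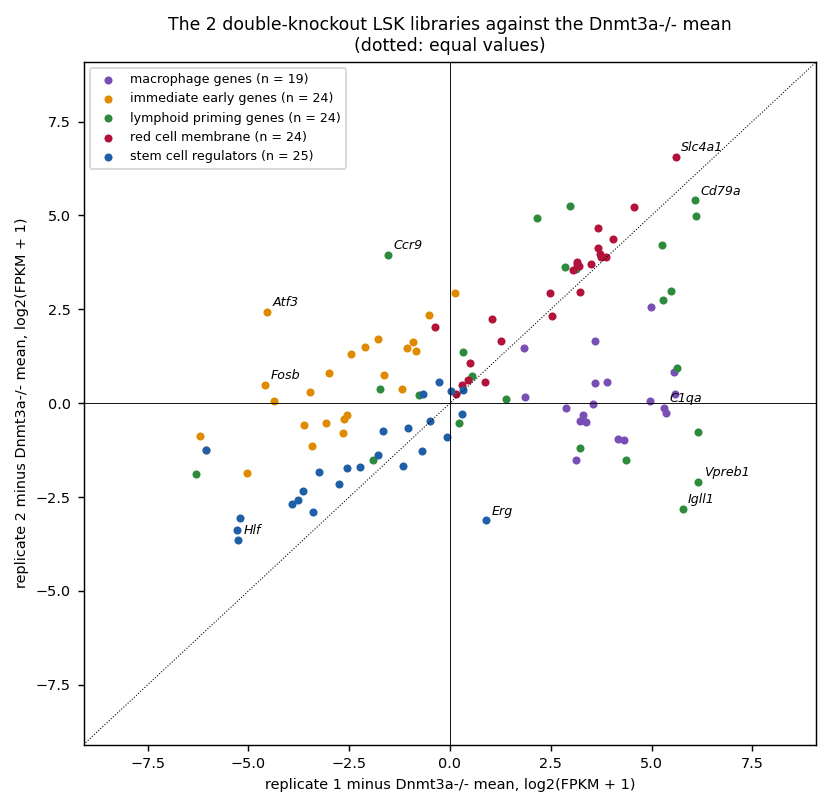
Log2(FPKM + 1) of double-knockout replicate 1 (x axis) and replicate 2 (y axis), each minus the Dnmt3a-/- mean, for the genes of 5 lists, with a dotted line of equal values. Red cell membrane genes lie along the line and stem cell regulators near it, while macrophage genes spread to the right and immediate early genes to the left of it.

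In the lists of Polycomb and DNA methylation genes, 2 of 12 for BCOR and PRC1.1 and 6 of 21 for PRC2 and canonical PRC1 were called. For DNA methylation it was 3 of 16, and the share of all tested genes was 26.6%. Among the 12 genes listed for BCOR and PRC1.1, Bcl6, the transcription factor that BCOR binds, rose (4.39, 3.98 and 4.28 against 8.09 and 11.5 FPKM, adjusted p = 0.029 in limma). Skp1a, a subunit shared with ubiquitin ligases, fell (180.0, 218 and 231 against 138 and 101 FPKM, adjusted p = 0.047 in limma). The median of this list was -0.06. Of 21 genes of PRC2 and canonical PRC1, 2 rose and 4 fell (median -0.14), and without double-knockout replicate 1 it was 5 and 7. Among 16 genes of DNA methylation and its readers, Dnmt3b, the other de novo methyltransferase, was 36.0, 32.7 and 32.1 FPKM in Dnmt3a-/- and 7.12 and 5.98 in double-knockout LSK, and fell to a mean 5.13-fold lower (adjusted p = 0.002). Tet1, which oxidizes methylcytosine, was 8.92, 8.74 and 7.83 FPKM against 3.12 and 1.51 (adjusted p = 0.018), and the methyl-CpG binding protein Mbd2 44.3, 53.8 and 47.8 against 102 and 98.6 (adjusted p = 0.0093). The groups did not overlap at these 3 genes. Dnmt1, which copies methylation at replication, was 113, 94.9 and 107 FPKM against 105 and 52.6, and Tet2 8.51, 7.74 and 6.36 against 5.60 and 9.19, and neither was called. Without replicate 1 this list had 3 genes higher and 4 lower, in place of 1 and 2.

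Interferon-stimulated genes rose in 14 of 25 cases, 9 with an adjusted p under 0.05, and none fell, with 13 of 24 higher apart from 1 tested through the double knockout alone. Isg15, a ubiquitin-like protein, was 7.25, 8.85 and 8.80 FPKM in Dnmt3a-/- and 47.3 and 62.1 in double-knockout LSK (2.57 ± 0.18, adjusted p = 0.0022), and Irf7, the factor that amplifies interferon, 13.9, 9.33 and 8.62 against 89.2 and 58.3. Oasl2 was 17.8, 19.8 and 15.9 FPKM against 16.0 and 5.44, lower in replicate 2, and was not called. Without replicate 2 the list had 22 genes higher and without replicate 1 it had 7 lower. Of 33 replication and mitosis genes 3 rose and none fell (median 0.03), against 14.5% and 12.1% of all tested genes. They were the cyclin Ccne1 (7.96, 7.88 and 10.2 against 38.2 and 24.3 FPKM), the ribonucleotide reductase subunit Rrm2 (53.7, 71.9 and 70.2 against 208 and 124) and Mki67 (98.0, 104 and 94.0 against 185 and 130.4, adjusted p = 0.069). The helicase subunit Mcm6 was 246, 261 and 257 FPKM against 308 and 125, above Dnmt3a-/- in replicate 1 and below it in replicate 2. Without replicate 1 the list had 13 genes lower, and without replicate 2 it had 10 higher.

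Of 22 genes of the p53 pathway 4 rose and 1 fell, so that 5 were called, against 26.6% of all tested genes. Apart from 1 gene tested through the double knockout alone 3 of 21 rose. Trp53 was 118, 101 and 109 FPKM in Dnmt3a-/- and 84.6 and 60.3 in double-knockout LSK, and fell by 0.61 ± 0.19 (adjusted p = 0.083), a call lost without Dnmt3a-/- replicate 1 or 3. Without double-knockout replicate 1 the list had 9 genes higher, and without replicate 2 it had 5 lower. Mdm2, the ligase that degrades p53, was 31.3, 34.7 and 33.5 FPKM against 26.4 and 49.4, and Cdkn1a (p21) 37.0, 41.2 and 65.8 against 9.05 and 40.2, and neither was called. Bmf, which promotes cell death, was 1.82, 1.12 and 1.12 FPKM against 19.4 and 12.9 (2.85 ± 0.27, adjusted p = 0.0039), and Bax 33.5, 31.3 and 46.9 against 77.5 and 69.4. In the Bcl2 family 7 of 17 genes rose, on both the survival and the death side, and 1 fell (3 without replicate 2), with 6 of 16 higher apart from 1 tested through the double knockout alone. Cdkn2a, which encodes the p16 and p19 inhibitors, was listed at 0 in all Dnmt3a-/- libraries and was 11.1 and 0.887 FPKM in double-knockout LSK. Of 11 CDK inhibitors, D cyclins and their kinases 6 rose and 3 fell (no rise and 1 fall with an adjusted p under 0.05 in limma), and 5 of 10 and 2 of 10 apart from those tested through 1 group alone, Cdkn2a among them. Without Dnmt3a-/- replicate 1, 2 or 3 the rises were 2, 0 and 3 and the falls 1, 1 and 2, and without double-knockout replicate 1 they were 3 and 4. Among 20 glycolysis genes 3 rose and 3 fell (median -0.26, against 14.5% and 12.1% of all tested genes), 5 higher without double-knockout replicate 1 and 6 lower without replicate 2. Pklr, the pyruvate kinase of red cells and liver, was 2.89, 3.96 and 2.67 FPKM against 31.3 and 17.0 (2.54 ± 0.30), whereas Tpi1 (232, 218 and 244 against 116 and 127) and Pfkl (45.5, 37.3 and 43.9 against 20.6 and 22.8) fell by 0.92 ± 0.14 and 0.93 ± 0.15. The small RNA Mir703, first by rank among the increases, was listed at 0 in the 3 Dnmt3a-/- libraries and 223 and 257 FPKM in double-knockout LSK. It was also 338 FPKM in 1 of 3 WT libraries and 0 in the other two, so no fold change is given.

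Loss of Bcor with Dnmt3a intact was set beside these values from libraries that the comparison above does not use. The study reports no leukemia in Bcor-/- mice, and a difference of effects below cannot be told apart from the leukemia of double-knockout mice. The column labels of the WT libraries also lack the Cre tag that those of the other groups carry. Between Bcor-/- and WT LSK 1909 of 11597 genes were called (16.5%), 948 higher and 961 lower. Of 11444 genes tested on both backgrounds 848 were called on both, which is 29.1% of the calls with Dnmt3a lost and 45.3% of those with it intact. Of these 304 were higher and 391 lower on both, and 153 moved in opposite directions. Stem cell genes fell on both backgrounds, with Dnmt3a intact in 12 of 25 regulators (median -0.59) and 16 of 28 surface genes (median -0.83). Cd34 was 649.7, 551 and 548 FPKM in WT against 391 and 265 in Bcor-/- LSK (-0.85 ± 0.17), and the difference between the effects was -4.36 ± 0.79 (interaction term of limma, adjusted p = 0.0083). Hlf was 67.6, 57.1 and 80.5 FPKM in WT against 39.1 and 28.0 in Bcor-/- LSK (difference of effects -3.43 ± 0.56, adjusted p = 0.0057). Unlike these, Klf1 was 1.96, 4.96 and 6.05 FPKM in WT against 16.1 and 35.4 in Bcor-/- LSK, so that it rose on both backgrounds (2.32 ± 0.43 and 2.84 ± 0.27), and the difference of 0.51 ± 0.60 was not called (adjusted p = 0.6). Gata1 and Epor likewise had no called difference, at 0.53 ± 0.38 and 0.64 ± 0.42.

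The late erythroid genes separated the backgrounds. Over all genes 3071 of 11952 (25.7%) had a called difference of effects, 1585 of them upward and 1486 (12.4%) downward, and 4708 without double-knockout replicate 1. Centring on the median changes the upward share from 51.6% to 40.6% (1340 of 3297). Hbb-b1 was 14.1, 34.8 and 57.8 FPKM in WT against 62.5 and 45.5 in Bcor-/- LSK, and Alas2 0.541, 1.57 and 2.01 and 1.72 and 1.04. The differences of effects were 6.85 ± 0.97 for Hbb-b1 (adjusted p = 0.0033), 6.37 ± 0.73 for Alas2 (adjusted p = 0.0016) and 5.94 ± 0.66 for Slc4a1 (adjusted p = 0.0015). In the red cell membrane list 17 of 24 genes had an upward difference and none a downward one, although 12 of 21 also rose with Dnmt3a intact. The 24 include the 4 genes tested above through the double knockout alone, at which an upward difference follows in part from the filter. In the heme list 9 of 13 genes had an upward difference, although 8 of 13 also rose with Dnmt3a intact (median 0.72). Alas1 went downward. It was 29.0, 51.9 and 32.2 FPKM in WT against 151 and 231 in Bcor-/- LSK and the difference was -2.32 ± 0.42 (adjusted p = 0.0086).

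Primary granule genes differed in the other direction. With Dnmt3a intact 17 of 24 rose (median 1.64), and with Dnmt3a lost the median was 0.02, so that 14 had a downward difference of effects, 11 with an adjusted p under 0.05. Mpo was 788, 1532 and 785 FPKM in WT against 4710.0 and 8426 in Bcor-/- LSK (difference -3.69 ± 0.80, adjusted p = 0.017). Elane was 217, 812 and 343 FPKM in WT against 3351 and 5593 in Bcor-/- LSK (difference -3.58 ± 0.99, adjusted p = 0.041). Both Bcor-/- libraries lay above every other LSK library at both genes. Late neutrophil genes went upward in 10 of 14 cases, 5 with an adjusted p under 0.05, beside the wide range of this list in WT LSK given above. Of 10 MHC class II genes 9 did so, and 13 of 25 stem cell regulators and 17 of 29 surface genes went downward. Among the 8 largest differences each way were further the T cell chemokine Ccl5 (10.7, 5.65 and 5.99 against 123 and 369.6 FPKM with Dnmt3a lost) and, downward, Fgf3 and 1700112E06Rik (-3.51 ± 0.56). Fgf3, a growth factor, rose with Dnmt3a intact, where WT LSK had 6.35, 5.96 and 10.2 FPKM and both Bcor-/- libraries 37.1 and 26.3. With Dnmt3a lost it fell, from 9.38, 6.51 and 10.4 to 0.497 and 3.72 FPKM (adjusted p = 0.066).

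**Figure D5:**
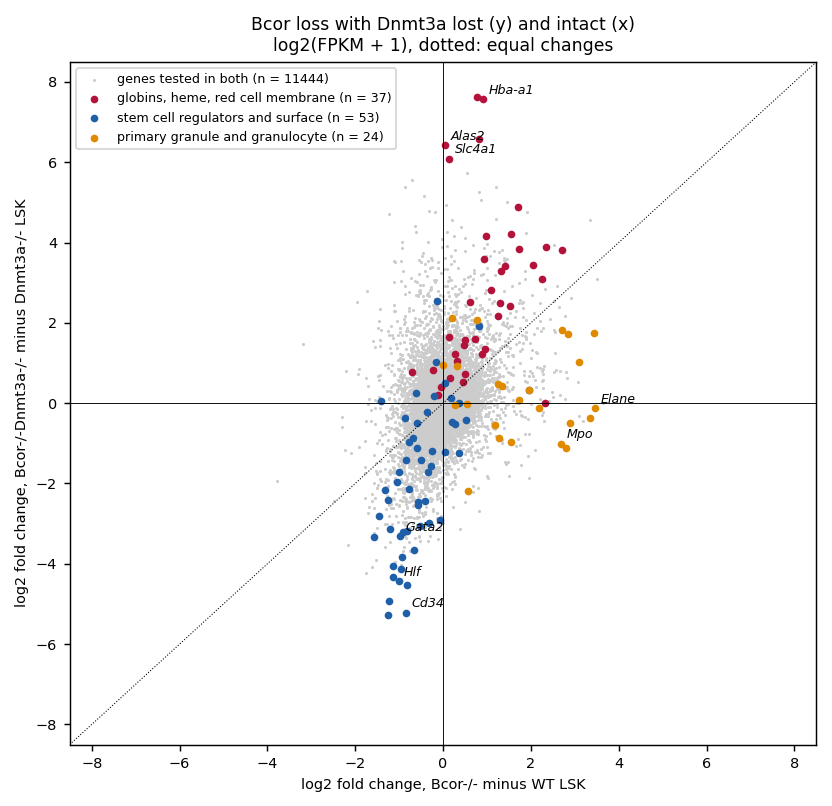
Log2 fold change on Bcor loss with Dnmt3a intact (x axis, Bcor-/- minus WT LSK) and with Dnmt3a lost (y axis, double knockout minus Dnmt3a-/- LSK) for the 11444 genes tested in both, with a dotted line of equal changes. Erythroid genes reach far above the line, stem cell genes mostly lie below it and primary granule genes spread to the right.

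The MEP libraries of the same mice give the same comparison in a more committed progenitor. Of 11000 genes tested in both cell types 3386 (30.8%) had an effect that differed between LSK and MEP, 1447 upward and 1939 downward in LSK, 1020 of them with an adjusted p under 0.05. With any 1 Dnmt3a-/- mouse left out no gene met the limits with the adjusted p in limma, while 2226 to 2816 met the unadjusted limits, the fewest without replicate 2. Without double-knockout replicate 1 or 2 the adjusted calls were 3956 and 4221. After quantile normalization the upward share was 54.0% (1794 of 3324) in place of 42.7%. Hba-a1 was 198, 246 and 216 FPKM in Dnmt3a-/- and 1055 and 55204 in double-knockout MEP, far higher in replicate 2, and the difference between LSK and MEP was 2.45 ± 1.21 (adjusted p = 0.2). Of 24 membrane genes 3 had an upward difference, against 1447 of all 11000 genes, and none had an adjusted p under 0.05 in limma. The median difference of this list was 1.92, against -0.05 over all genes. Hbb-b1 was listed at 0 in double-knockout MEP replicate 2, beside the highest Hba-a1, and is not compared. Stem cell genes were lower in MEP than in LSK of Dnmt3a-/- mice. Cd34 was 44.1, 4.46 and 6.08 FPKM in Dnmt3a-/- and 7.02 and 13.8 in double-knockout MEP. Of 18 stem cell regulators 16 had a downward difference in LSK, 8 with an adjusted p under 0.05 in limma. Gata2 was 53.8, 27.0 and 30.5 FPKM in Dnmt3a-/- and 6.98 and 30.2 in double-knockout MEP (difference -2.10 ± 0.34, adjusted p = 0.037, a call on the adjusted p that is lost with any 1 Dnmt3a-/- mouse left out). Lineage genes were also higher in double-knockout MEP. Ptprc was 21.8, 14.0 and 15.9 FPKM against 103 and 131. All 14 late neutrophil genes had a downward difference, that is, a larger log2 rise in MEP, against 1939 of all 11000 genes. Of the 14, 8 had an adjusted p under 0.05 in limma. Such a rise is relative to the Dnmt3a-/- level of each cell type. Itgam, not in this list, was 2.15, 0.502 and 1.04 FPKM in Dnmt3a-/- MEP, below its LSK levels above, and 18.8 and 35.7 in double-knockout MEP. The split between the mice recurred in MEP, where C1qa was 174 and 0.616 FPKM and Vpreb1 793 and 0.627 FPKM in double-knockout replicates 1 and 2.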

How the data were processed

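Polyadenylated RNA of FACS-sorted LSK and MEP cells was sequenced. Per the submitters' processing notes the tools were STAR 2.5.1b, SAMtools 1.9 and Cufflinks 2.2.1 with mm9. The annotation, the strandedness and the way libraries were scaled to each other are not given in the sources used here. The authors deposited FPKM values, 1 table per cell type with 24315 genes and 10 libraries, and the labels name the genotype and mouse of each column. The summed FPKM of the LSK libraries ranged from 413482 to 522688 and the median over genes of the log2 ratio to a gene's mean from -0.01 to 0.01. No counts are given, so depth and counting error are unknown.

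FPKM were used as deposited and converted to log2(FPKM + 1), and only genes averaging 1 FPKM or more in the libraries compared were kept. Limma 3.58.1 (R 4.3.3) with a mean-variance trend tested double-knockout against Dnmt3a-/- LSK, 2 against 3 libraries, without covariates. The same test gave Bcor-/- against WT LSK, the difference of the effects of Bcor loss on the 2 backgrounds (interaction term, 10 LSK libraries) and, on the LSK minus MEP value of each mouse, the difference between cell types. The study's methods state thresholds (p under 0.05, fold above 1.5) but no test or adjustment, so calls use the unadjusted p, and the Benjamini-Hochberg adjusted p over all tested genes stands beside them. Gene lists (32) are described by counts and medians, without a set test. The comparison, the lists and the rules were chosen with earlier results of these data known. Named are the 12 largest changes each way whose groups did not overlap and whose adjusted p was below 0.05, the 8 largest differences of effects each way, list members and the deleted genes, and other genes are said to be chosen after their values were seen. Some genes that these rules name are not reported here. Ahsp and Hbb-bt were not analysed here. The procedure was tested on simulated data. Alternatives were quantile normalization, median centring, a minimum of 5 FPKM, no filter, a pseudocount of 0.1, all 10 LSK libraries in 1 model, 1 variance per genotype, no trend, the adjusted p, a fold above 2, the replicate number as a block, and each library left out. Plots used matplotlib 3.10.9 in Python 3.11.15.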

Additional observations from a re-analysis of the deposited data

Results flagged for a closer look

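The change from Dnmt3a-/- to double-knockout LSK differed from that from WT to Bcor-/- LSK in 14 genes named from the 8 largest each way. They were taken by the interaction term of limma with adjusted p below 0.05 and separate double-knockout and Dnmt3a-/- values. Leukemia of the double-knockout mice cannot be told apart from the background in these differences. Upward, on the log2 scale, the differences were 6.85 for Hbb-b1, 6.65 for Hba-a1, 6.37 for Alas2 and 5.94 for Slc4a1 among red cell genes, and 6.25 for Gimap4 and 5.94 for Ccl5 among lymphocyte genes. Downward they were -4.36 for Cd34, -4.02 for Adgrl4, -3.71 for Slc22a3, -3.71 for Angpt1 and -3.43 for Hlf among stem cell genes, -3.52 for Pf4, -3.81 for Fgf3 and -3.51 for 1700112E06Rik. Groups of 2 or 3 libraries allow no test for a single outlying library.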

How the results depend on the processing

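The count of genes called between double-knockout and Dnmt3a-/- LSK was 3211 and lay between 2307 and 3655 with another pseudocount, filter, scaling, model or variance. It fell to 1970 with the adjusted p, 1997 with a fold above 2 and 2107 with the replicate number as a block (0 of these with an adjusted p under 0.05). With 1 library left out it ranged from 2533 to 4948. The difference between backgrounds (3071) was 1774 with the adjusted p, 1836 with a fold above 2, 2934 with the replicate block and 2638 to 4708 with 1 library left out. The difference between LSK and MEP (3386) was 2086 with 1 variance per genotype (0 with an adjusted p under 0.05), 1020 with the adjusted p, 1831 with a fold above 2 and 2226 to 4749 with 1 library left out, and had no block fit, since each mouse enters through its own difference. Bcor-/- against WT (1909) was 588 with a fold above 2, 1932 with the replicate block and 1328 to 2383 with 1 library left out. With 1 variance per genotype the adjusted calls were 1016 in place of 1970 in the main comparison, and 700 in place of 1774 for the difference between backgrounds. Same-numbered deviations of double-knockout and Dnmt3a-/- LSK libraries from their group means correlated at -0.04 and -0.03. Both double-knockout deviations mirror each other, so these values cannot exclude a pairing by replicate number.

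For the 152 genes named, 2283 of 2422 alternative values kept the direction and side of the threshold, 68 lost the call, 40 gained one and 26 uncalled values changed sign. Reversed were values without a double-knockout mouse, with leave-one-out ranges of -2.09 to 6.16 for Vpreb1, -2.81 to 5.77 for Igll1, -1.51 to 4.36 for Rag1, -4.53 to 2.44 for Atf3 and -3.12 to 0.89 for Erg, and the cause was not tested. Of the list counts 911 alternative values stayed within 1.5 times and 113 did not. Unknown depth limits all values near 0.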
